A study of Mus musculus with 4 samples.

Results

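Dendritic cells of the mouse kidney were picked out of a droplet single-cell RNA sequencing series of male C57BL/6 mice, 6 to 8 weeks old, that were injected intraperitoneally with glyoxylate. Glyoxylate is turned into oxalate in the body, and repeated injections are used in mice to bring calcium oxalate crystals into the renal tubules. The groups were 0 days (D0), 1 day (D1), 4 days (D4) and 7 days (D7) of successive injections, with 1 library of whole kidney each, so the days have no replicates. All groups shared the strain, sex, age and dissociation, in which minced kidney was digested with 0.25% trypsin and DNase I at 37 °C. How many mice went into a library, and what the D0 mice were injected with, is not given in the sources used here.

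A barcode was taken as a dendritic cell when it had at least 500 UMIs (unique molecular identifiers, each counting 1 captured RNA molecule) and at most 50% of them from mitochondrial genes. It also needed at least 1 UMI of Flt3, Cd209a, Clec9a and Xcr1 together, at least 20 of the class II antigen presentation genes H2-Aa, H2-Ab1, H2-Eb1 and Cd74, and at most 4 of the complement genes C1qa, C1qb and C1qc, which mark resident macrophages. Barcodes with any UMI of the B cell genes Cd79a and Ms4a1 or the T cell genes Cd3d, Cd3e and Cd3g were left out. The rule took 290 of the 56471 barcodes that passed the UMI and mitochondrial limits, 37 of 14485 at D0, 96 of 11428 at D1, 64 of 16103 at D4 and 93 of 14455 at D7. The cells were thus selected on their UMIs of these genes, and levels of the rule's own genes are given as a description.

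Dendritic cells take up antigen in tissues, load peptides onto class II and class I molecules and carry them to T cells. Flt3 is the receptor for the growth factor on which their development depends. Conventional type 1 cells carry Clec9a, a receptor for the actin of dead cells, and the chemokine receptor Xcr1, depend on the transcription factors Irf8 and Batf3 and are known for showing ingested antigen on class I molecules. Conventional type 2 cells form the more varied arm, overlap with monocyte-derived cells in many genes, and include cells with the C-type lectin Cd209a. Plasmacytoid cells, known for making type I interferon, carry Siglech, Bst2, Ly6d and the transcription factor Tcf4, and in mice can carry low Clec9a too.

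The upstream sequences of the genes that split the gated cells are shown here, because the comparisons below turn on which of them a cell carried. Each is the 250 bases before the RefSeq start of the gene (GRCm38.p6), 5′ to 3′ on the strand of the gene, and capitals mark CANNTG, the E-box letters that Tcf4 and its relatives are known to read. CANNTG reads the same on both strands.
Siglech, chr7:55767934-55768183, plus strand: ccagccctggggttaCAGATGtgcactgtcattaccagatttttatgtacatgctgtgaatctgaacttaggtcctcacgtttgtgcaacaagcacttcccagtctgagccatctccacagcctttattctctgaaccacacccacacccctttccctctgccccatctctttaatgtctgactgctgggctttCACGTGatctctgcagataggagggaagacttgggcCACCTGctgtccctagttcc
Clec9a, chr6:129408612-129408861, plus strand: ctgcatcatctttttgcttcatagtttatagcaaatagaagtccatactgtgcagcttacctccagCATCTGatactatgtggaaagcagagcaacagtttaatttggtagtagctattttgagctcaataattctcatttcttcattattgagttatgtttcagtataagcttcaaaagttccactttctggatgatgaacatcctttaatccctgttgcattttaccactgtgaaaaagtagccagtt
Xcr1, chr9:123862030-123862279, minus strand: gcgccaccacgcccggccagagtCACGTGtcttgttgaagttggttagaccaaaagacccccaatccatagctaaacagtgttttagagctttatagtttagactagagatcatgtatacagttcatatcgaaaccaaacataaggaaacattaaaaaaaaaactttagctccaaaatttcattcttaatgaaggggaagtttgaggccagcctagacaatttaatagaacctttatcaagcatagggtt
Cd209a, chr8:3748985-3749234, minus strand: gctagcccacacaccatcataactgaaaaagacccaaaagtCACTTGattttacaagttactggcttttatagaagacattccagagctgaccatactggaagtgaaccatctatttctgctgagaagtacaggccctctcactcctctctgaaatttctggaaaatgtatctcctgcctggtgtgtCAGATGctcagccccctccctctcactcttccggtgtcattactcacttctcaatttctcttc

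CANNTG stood at 235, 56 and 20 bases before the start of Siglech, at 184 before Clec9a, at 227 before Xcr1 and at 209 and 63 before Cd209a. These letters were in 66.2% of the 32851 windows of the same length, so holding them does not set the 4 genes apart. The AP-1 letters TGANTCA, searched on both strands, had no match in the 4 windows and were in 6.75% of all windows. In the GENCODE M21 annotation of mm10, Siglech lies at chr7:55768178-55778925 on the plus strand, Clec9a at chr6:129408862-129424763 on the plus strand, Xcr1 at chr9:123852315-123862029 on the minus strand, Cd209a at chr8:3743397-3748984 on the minus strand and Flt3 at chr5:147330741-147400489 on the minus strand.

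In all, 225198 UMIs came from the gated cells of D0, 817423 from D1, 316377 from D4 and 451549 from D7, with medians of 4451, 6900, 4083 and 3959 UMIs and of 6.05%, 4.42%, 8.26% and 6.83% mitochondrial UMIs per cell. The barcode lists of D0 and D1 reached down to 500 UMIs, while those of D4 and D7 began at 2919 and 2773 UMIs. Tubule RNA was present in every library of gated cells: over 15 proximal tubule markers, dendritic cells had a median of 30.5%, 26.6%, 39.6% and 25.4% of the proximal tubule cell level at D0, D1, D4 and D7. Any library pair shared 50 to 81 barcodes, and no barcode was a dendritic cell in both libraries of a pair. A doublet score (Scrublet) at a fixed rate marked 19 of 37, 12 of 96, 16 of 64 and 18 of 93 dendritic cells at D0, D1, D4 and D7, against 11.6%, 9.14%, 12.9% and 11.6% of all barcodes, and its own threshold marked 0, 0, 19 and 21 of them. No cell was removed for it, and the values without those cells are given with the other alternatives.

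Cd209a had 113, 443, 208 and 335 UMIs in dendritic cells at D0, D1, D4 and D7, equal to 502, 542, 657 and 742 CPM (counts per 1000000 UMIs of the summed cells). In proximal tubule cells, which do not make it, Cd209a was at 0.085, 0.247, 0.196 and 0.105 CPM, and Flt3, Clec9a and Xcr1 were at no more than 0.0571, 0.114 and 0.0175 CPM there. Flt3 had 8, 69, 19 and 36 UMIs, or 35.5, 84.4, 60.1 and 79.7 CPM. A single UMI of the 4 genes let in 9, 20, 17 and 33 cells at D0, D1, D4 and D7 of the 37, 96, 64 and 93 in all.

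The class II sum was far above its limit in most cells, with medians of 165, 152.5, 109 and 136 UMIs. Just inside that limit, 0, 10, 6 and 9 cells had 20 to 29 class II UMIs at D0, D1, D4 and D7, and just outside it 1, 4, 7 and 7 barcodes had 10 to 19. Just inside the C1q limit 3, 5, 6 and 3 cells had 1 to 4 C1q UMIs, and just outside it 0, 1, 1 and 2 barcodes had 5 to 8. The marker step cut deeper, since 59, 121, 74 and 176 barcodes met all other steps without a UMI of the 4 genes.

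Markers of other cell types were read in the same cells. The 10 macrophage markers summed to 853, 263, 408 and 600.2 CPM at D0, D1, D4 and D7, with Trem2 at 0 at D7, and the 10 monocyte markers to 1727, 1907, 910.3 and 1689.7 CPM, with Chil3 at 0 at D0, D1 and D4 and Vcan at 0 at D0 and D7. Of the 10 NK cell markers, Ncr1, Klrb1c, Klra8, Prf1, Eomes and Klra4 were at 0 in all 4 libraries, and the list summed to 57.7, 69.7, 41.1 and 84.2 CPM. The T cell markers summed to 147, 143, 34.8 and 37.6 CPM, and to 0, 12.0, 26.6 and 7.53 CPM once the cells with plasmacytoid markers described below were taken out. Markers of the thick ascending limb summed to 97.7, 84.4, 139 and 403 CPM; the D7 value held 112 UMIs of Umod in 5 cells, 45.5% of them in 1 cell. The part of these RNAs in the results below was not tested.

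Dendritic cells made up 0.255% of barcodes (95% Clopper-Pearson interval 0.180 to 0.352) at D0, 0.840% (0.681 to 1.02) at D1, 0.397% (0.306 to 0.507) at D4 and 0.643% (0.520 to 0.788) at D7. The share was thus highest in the D1 library and lowest in the D0 library, and the intervals of D1 and D7 do not reach that of D0. Relative to D0 it was 3.29 times (2.23 to 4.94) as high at D1, 1.56 times (1.02 to 2.40) at D4 and 2.52 times (1.70 to 3.79) at D7. These intervals, like all others by day, cover counting error only, and with 1 library a day no test of the day is possible.

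The depth at which each barcode list began touched these shares. Among barcodes with at least 3000 UMIs the shares were 0.355%, 1.18%, 0.394% and 0.614% at D0, D1, D4 and D7, which left ratios to D0 of 3.32 (2.22 to 5.07) for D1, 1.11 (0.722 to 1.73) for D4 and 1.73 (1.15 to 2.64) for D7. With every barcode thinned to 3000 UMIs the ratios were 2.83, 0.994 and 1.74. The interval of the D4 ratio included 1 among barcodes with at least 3000 UMIs.

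**Figure D1:**
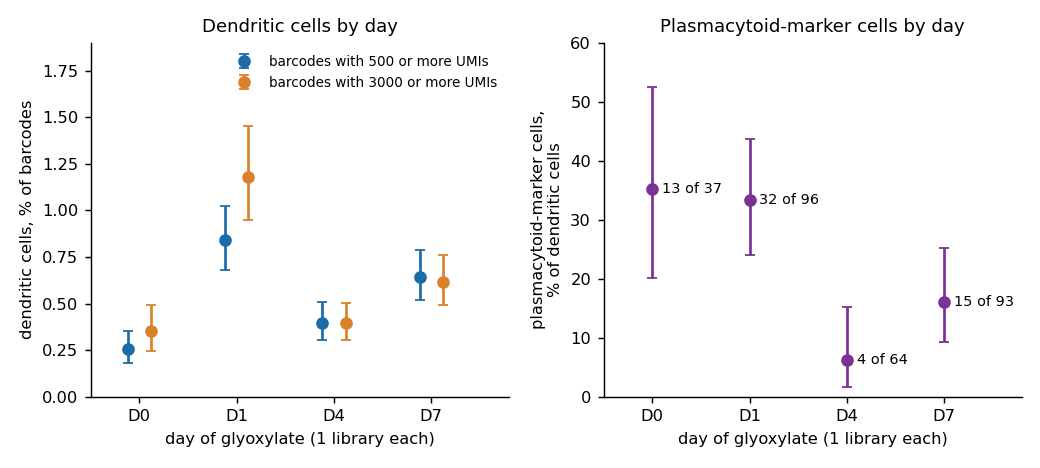
Left, dendritic cells as a percent of barcodes in the libraries D0, D1, D4 and D7, over all barcodes with at least 500 UMIs and over those with at least 3000. Right, cells with plasmacytoid markers as a percent of the dendritic cells. Points are 1 library each and bars are exact 95% intervals of the share; D1 is highest at 0.840% on the left, and D4 is lowest at 6.25% on the right.

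The label covers more than conventional dendritic cells. In every library some gated cells carried many UMIs of 6 genes of plasmacytoid cells (Siglech, Ccr9, Ly6d, Cox6a2, Pacsin1 and Spib) and most carried none. The sum was 0 in 24, 50, 57 and 70 cells at D0, D1, D4 and D7, 1 to 4 in 0, 14, 3 and 8, 5 to 9 in 0, 0, 1 and 2, and 10 or more in 13, 32, 3 and 13. A sum of 5 or more was used to set these cells apart; that line was drawn after the sums were seen, so what follows on it is a description with no test.

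Cells with plasmacytoid markers were 13 of 37 dendritic cells at D0 (35.1%, 20.2 to 52.5), 32 of 96 at D1 (33.3%, 24.0 to 43.7), 4 of 64 at D4 (6.25%, 1.73 to 15.2) and 15 of 93 at D7 (16.1%, 9.32 to 25.2). Their share was thus lower in the D4 library than in D0 and D1 beyond counting error. After thinning to 3000 UMIs it was 37.9%, 29.0%, 4.35% and 5.71%. Without them the dendritic cell share was 0.166%, 0.560%, 0.373% and 0.540% of barcodes, which was a ratio to D0 of 3.38 (2.08 to 5.65) for D1, 2.25 (1.38 to 3.78) for D4 and 3.26 (2.04 to 5.38) for D7.

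Siglech, a lectin-like receptor of plasmacytoid cells, was at 1932, 1543, 870.4 and 1701 CPM at D0, D1, D4 and D7 in the cells with plasmacytoid markers, against 0, 10.3, 6.66 and 15.1 CPM in the other dendritic cells. Siglech is one of the genes that set them apart, so the genes outside the 6 say more. Bst2, the antigen tetherin, was at 3829, 3443, 2362 and 3987 CPM against 172, 335, 179.8 and 301. Tcf4, the transcription factor that plasmacytoid cells need, was at 1159, 1006, 1057 and 1209 CPM against 71.3, 68.4, 46.6 and 70.2. All 4 libraries had both genes higher in the marked cells, without overlap.

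The same held for Irf8, which both plasmacytoid and type 1 cells use, at 2512, 2265, 2052 and 2399.9 CPM in the marked cells against 184, 304, 143 and 143 CPM in the others. Runx2, a transcription factor known in plasmacytoid cells, was at 439, 241, 373 and 435 CPM against 5.94, 10.3, 6.66 and 15.1. Ly6c2, H2-Q7 and Klk1 were higher in the marked cells in all 4 libraries as well, but each has near-identical relatives, so reads may be split between copies.

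Genes of conventional cells ran the other way. Lyz2, the lysozyme of myeloid cells, had 0, 1, 2 and 2 UMIs in all marked cells of D0, D1, D4 and D7, against 5943, 2902, 1988 and 3178 CPM in the other dendritic cells. The maturation gene Cd83 was at 0, 4.30, 0 and 0 CPM against 232, 198, 113 and 213. Tnfsf9, the T cell costimulator 4-1BB ligand, was at 0, 8.60, 0 and 0 CPM against 113, 161, 133 and 211. Ms4a6b was at 0 in the marked cells of every library against 196, 227, 179.8 and 161 CPM.

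The marked cells carried rule genes other than Xcr1. By gene, 5, 8, 2 and 3 of them had Clec9a without Cd209a at D0, D1, D4 and D7, 5, 14, 1 and 7 had Cd209a without Clec9a, 3, 7, 0 and 1 had both, and 0, 3, 1 and 4 had Flt3 alone. Clec9a was at 141, 81.7, 187 and 94.5 CPM in the marked cells, on 8, 19, 3 and 5 UMIs, against 29.7, 42.8, 13.3 and 17.6 CPM in the others. Cd209a was at 316, 292, 62.2 and 208 CPM against 565, 641, 689 and 813. Xcr1 had no UMI in the marked cells of any library. Cd209d, a paralogue of Cd209a and so close in sequence that reads may be split between them, was at 597, 417, 311 and 586 CPM against 11.9, 73.5, 23.3 and 77.8. Class II was lower in them, with H2-Aa at 2143, 1908, 1119 and 2003 CPM against 6466, 5647, 4749 and 6174. The gate held 13, 33, 4 and 17 of the 30, 52, 12 and 41 barcodes with 2 or more Siglech UMIs, so it does not hold all cells of this kind.

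**Figure D2:**
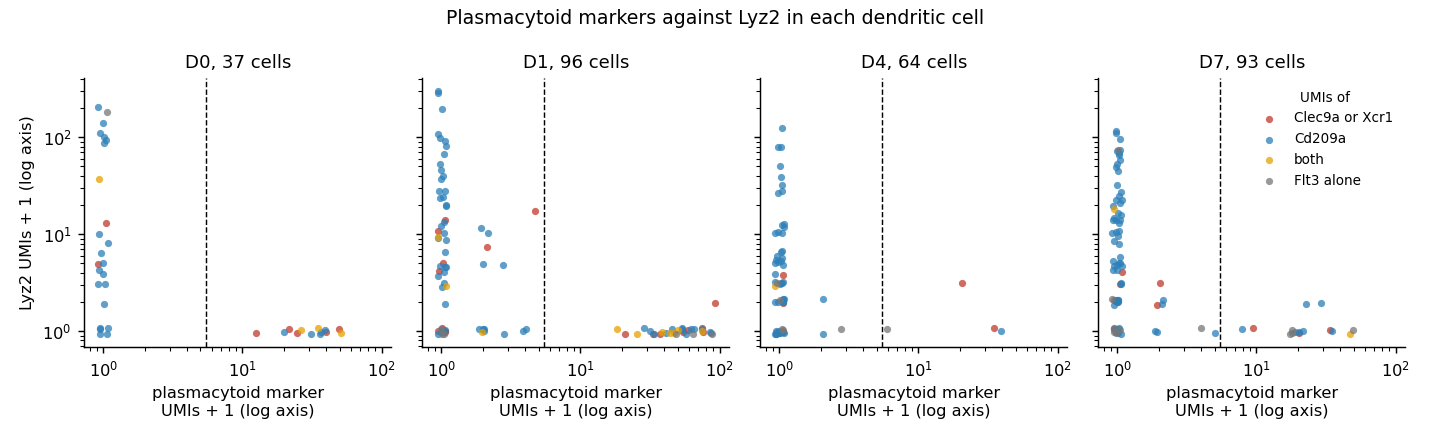
Each point is 1 dendritic cell, with 1 panel for each of D0, D1, D4 and D7; the x axis is the summed UMIs of the 6 plasmacytoid genes plus 1 and the y axis the UMIs of Lyz2 plus 1, both on log scales. Colours give the rule genes a cell carried, and the dashed line is at 5 UMIs; the 13, 32, 4 and 15 cells to its right hold 5 Lyz2 UMIs in all.

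By rule genes, 7, 18, 5 and 10 dendritic cells at D0, D1, D4 and D7 had Clec9a or Xcr1 without Cd209a, 25, 62, 52 and 70 had Cd209a without the pair, 4, 10, 1 and 2 had both, and 1, 6, 6 and 11 had Flt3 alone. Cells with Clec9a or Xcr1 were thus 21.9% (9.28 to 40.0), 22.5% (13.9 to 33.2), 8.77% (2.91 to 19.3) and 12.5% (6.16 to 21.8) of the cells with one or the other. These intervals overlap between all days. Of the cells with Clec9a or Xcr1, 5 of 7, 8 of 18, 2 of 5 and 3 of 10 were cells with plasmacytoid markers, against 5 of 25, 14 of 62, 1 of 52 and 7 of 70 of those with Cd209a. Without them the share was 9.09% (1.12 to 29.2), 17.2% (8.59 to 29.4), 5.56% (1.16 to 15.4) and 10.0% (4.12 to 19.5), on 2, 10, 3 and 7 cells.

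By level over all gated cells, Xcr1 had 10 UMIs at D0, 36 at D1, 0 at D4 and 4 at D7, or 44.4, 44.04, 0 and 8.86 CPM, and Clec9a had 13, 44, 7 and 12 UMIs, or 57.7, 53.8, 22.1 and 26.6 CPM. Both were lower in the D4 and D7 libraries than in D0 and D1. At D0, 1 cell held 8 of the 10 Xcr1 UMIs and another cell the other 2. Cells with plasmacytoid markers held 8 of the 13 Clec9a UMIs there. Cd209a, at the levels given above, was highest at D7 and lowest at D0. These genes chose the cells, and their order by day is a description.

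Cells with Clec9a or Xcr1 were compared with cells with Cd209a across genes, with the UMIs of each kind summed in each library and the library as a block, so that the 4 libraries serve as pairs. In edgeR's quasi-likelihood test with Benjamini-Hochberg adjustment over 1997 genes, 27 were at least 2-fold higher (1.35%) and 57 at least 2-fold lower (2.85%) in cells with Clec9a or Xcr1 at an adjusted p under 0.05. The p-values measure the spread between these 4 libraries, each a different day. Genes of the rule were not tested. With the D0 library left out 14 were higher and 37 lower, and with D1 left out 18 and 37. Leaving out the cells marked by the doublet score gave 1 higher and 14 lower of 1109 genes tested.

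Genes of type 1 cells were higher with Clec9a or Xcr1. Of the 22 listed type 1 genes 8 had enough UMIs to be tested, and these were higher. A gene high in 1 of the 2 kinds of cells can enter the test through that kind alone, so this count is a description. So are the results of single genes that entered that way, as Ifi205 did by the values below. Ifi205, an interferon-inducible gene with near-identical relatives, was at 149.6, 247, 304 and 104 CPM at D0, D1, D4 and D7 with Clec9a or Xcr1, against 0, 22.5, 0 and 8.79 CPM with Cd209a. Its log2 fold change was 4.14 ± 0.56 (SE) with an adjusted p of 0.000473. Irf8 was at 1745, 1574, 989.6 and 695 CPM against 369.7, 541, 85.5 and 278, a log2 fold change of 1.99 ± 0.29 (adjusted p 0.000877). It was higher in the cells with Clec9a or Xcr1 in 4 of 4 libraries, as were all genes named in this paragraph. Cd24a, a surface glycoprotein of type 1 cells, was at 99.7, 164, 266 and 243 CPM against 19.5, 33.7, 23.3 and 64.4, and Naaa, a lysosomal amidase, at 249, 474, 228 and 330.2 CPM against 25.9, 61.8, 85.5 and 123. Ppt1, a lysosomal thioesterase known from type 1 cells, had a log2 fold change of 2.60 ± 0.28, Batf3 of 1.41 ± 0.35 and Id2, an inhibitor of E-box factors, of 1.18 ± 0.26. Batf3 did not pass with the D0 library left out (1.31), nor Id2 with D1 left out (0.87). With the cells marked by the doublet score removed, Irf8 (1.63) and Id2 (1.66) did not pass, and the other 6 type 1 genes had too few UMIs to be tested.

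Few genes of antigen handling passed, while the list medians differed. The median log2 fold change was 0.596 over tested class I genes and -0.308 over tested class II helpers, against -0.013 over all tested genes. Without the cells with plasmacytoid markers these medians were 0.485 and -0.158, against -0.047. Cst3, the protease inhibitor cystatin C, was at 9548, 13860, 16214 and 7803 CPM with Clec9a or Xcr1, against 3094, 3801, 2713 and 3066 CPM with Cd209a (log2 fold change 1.83 ± 0.24, adjusted p 0.000413). Ifi30, a thiol reductase that opens antigens for class II loading, was lower with a log2 fold change of -1.49, and the protease Ctss with -1.26. These 3 were the genes that passed among 10 tested class II helpers. Among 13 tested class I genes, the immunoproteasome subunit Psmb9 (1.53) and H2-Q7 (1.80) were higher. With the D0 library left out Ctss (-1.31), Psmb9 (1.54) and H2-Q7 (1.85) did not pass. With the cells marked by the doublet score removed, Cst3 (1.21), Ifi30 (-1.54), Ctss (-1.53), Psmb9 (1.26) and H2-Q7 (1.84) did not pass. With the cells carrying plasmacytoid markers removed, Ctss (-1.27) did not pass and H2-Q7 had too few UMIs to be tested.

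Lyz2 led the genes of the Cd209a cells by adjusted p, at 399, 335, 228 and 174 CPM in cells with Clec9a or Xcr1, against 4994, 3059.9, 2285 and 3436 CPM with Cd209a (log2 fold change -3.59 ± 0.24, adjusted p 2.19e-06). These sums were uneven over cells, since single Cd209a cells held from 0 to 207 Lyz2 UMIs at D0 and from 0 to 322 at D1. Over all dendritic cells, 24.3% at D0 and 26.0% at D1 had 10 or more, so the sums describe a minority of cells. S100a4, a calcium-binding protein of motile cells, was at 0, 37.9, 38.1 and 469 CPM against 1089.7, 1440.1, 1632 and 1877. Of 14 tested type 2 genes, 10 were lower with Clec9a or Xcr1 and none higher, a count to which the same limit applies. They included the fractalkine receptor Cx3cr1 (-4.31), the inhibitory receptor Cd300a (-3.46), the lectin Clec10a (-2.59) and the growth factor receptor Csf1r (-2.95). With the D0 library left out Cx3cr1 (-4.16) and Csf1r (-2.78) did not pass. With the cells marked by the doublet score removed, S100a4 (-3.95) and Clec10a (-2.18) did not pass, while Lyz2 (-4.56) and Cd300a (-3.19) did.

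Of the tested chemokines 2 of 4 were lower with Clec9a or Xcr1 (Ccl9 and Ccl6), of the cytokines and their receptors 1 of 5 (Il1b) and of the costimulatory ligands 1 of 2 (Tnfsf9). A gene can enter the test through the Cd209a cells alone, as Ccl9, Clec4b1 and Tnfsf9 did by the values below. The counts of this paragraph, and the results of those genes, are thus descriptions. Ccl9 had no UMI with Clec9a or Xcr1 in any library, against 201, 157, 198 and 363 CPM with Cd209a, and the lectin Clec4b1 none, against 77.8, 76.8, 113 and 123 CPM. Tnfsf9 was at 0, 6.32, 0 and 0 CPM against 117, 114, 155 and 223 (log2 fold change -5.10 ± 0.67, adjusted p 0.000415). Il1b, the inflammatory cytokine interleukin 1 beta, was at 299, 133, 266 and 417 CPM against 772, 1374, 1026 and 2044 (log2 fold change -2.40 ± 0.28, adjusted p 0.000228). The chemokine Ccl4 was at 1222, 1410, 1789 and 956 CPM against 461, 1389.5, 968 and 1130.5 and did not pass, with a log2 fold change of 0.44 ± 0.24. The transcription factors Cebpb and Zeb2 were lower, with log2 fold changes of -3.03 and -1.14, and 7 of 19 tested immediate-early and heat shock genes were lower, among them Ier2 (-2.25) and Junb (-1.56). Zeb2 did not pass with any 1 library left out (-1.25 to -1.03). Of 19 tested actin and podosome genes 3 were lower, S100a6, S100a10 and Vim, and of 7 glycolysis and hypoxia genes, 4 cell cycle genes and 4 interferon-stimulated genes none passed.

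The contrast held plasmacytoid genes too, since more of the Clec9a or Xcr1 cells carried those markers. Cox6a2 and Siglech were higher in them, by 2.59 and 1.54, and 4 of 7 tested plasmacytoid markers passed; Siglech did not pass with the D0 library left out (1.48). Without the cells with plasmacytoid markers 14 of 1437 genes were higher (0.974%) and 37 lower (2.57%). Then the 6 type 1 genes with enough UMIs to be tested were higher, with log2 fold changes of 3.68 for Irf8 and 3.19 for Ppt1, and 5 of 11 type 2 genes were lower. The limit on genes that enter the test through 1 kind of cell applies to these counts too. Cst3 (2.43) and Psmb9 (2.06) were higher then, and Ifi30 (-1.39) was lower. Lyz2 (-3.11), S100a4 (-3.68), Ccl9 and Il1b (-1.93) were lower then as well, as were 2 of 18 immediate-early and heat shock genes, Ier2 and Junb.

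**Figure D3:**
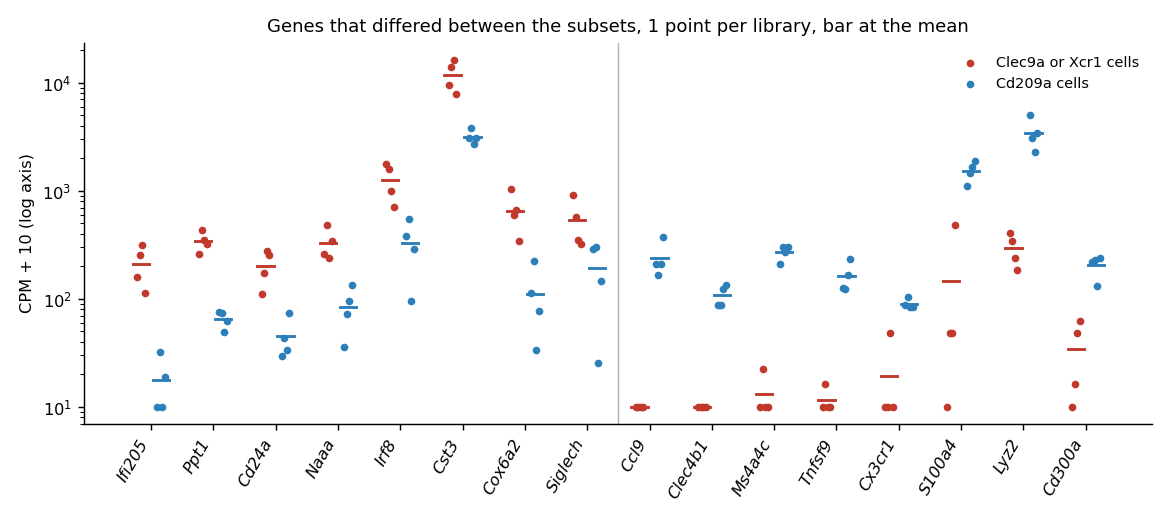
CPM plus 10 on a log axis in cells with Clec9a or Xcr1 (left of each pair, red) and cells with Cd209a (blue), with 1 point for each of the 4 libraries and a bar at their mean. The 8 genes on the left are higher and the 8 on the right lower with Clec9a or Xcr1; Lyz2 is at 174 to 399 CPM against 2285 to 4994 CPM.

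By day, the summed dendritic cells of D1, D4 and D7 were each set against those of D0. A gene was counted as higher or lower past a 2-fold ratio of CPM plus 10, where both libraries together had 20 or more UMIs of it. At D1, 231 of 5301 such genes were higher (4.36%) and 47 lower (0.887%). At D4 it was 116 of 3145 (3.69%) and 89 (2.83%), and at D7 149 of 3763 (3.96%) and 74 (1.97%). The 3 comparisons share the D0 cells, of which there were 37. Their depth was uneven, since the deepest cell held 34174 of the 225198 UMIs at D0 and another held 16849. These cells had 823 and 1037 UMIs of the proximal tubule marker Kap. Neither carried plasmacytoid markers, so both are also in the 168268 UMIs of D0 left without such cells. Their part in the D0 levels was not tested. The median log2 ratio over all the genes counted was 0.145 at D1, 0.031 at D4 and -0.003 at D7. Without the cells with plasmacytoid markers the percentages were 6.79% and 1.49% at D1, 4.49% and 1.76% at D4, and 5.63% and 1.92% at D7.

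Some genes were at 0 in the D0 cells and present later. Ifitm1, an interferon-induced membrane protein that hinders virus entry, had 0 UMIs at D0, 139 at D1, 56 at D4 and 72 at D7, or 0, 170, 177 and 159 CPM. Set against a floor of 3 UMIs in the D0 library, it was at least 12.8-fold higher at D1, 13.3-fold at D4 and 11.97-fold at D7. It was seen in 13, 16 and 25 cells at D1, D4 and D7, with 37.4%, 35.7% and 15.3% of its UMIs in 1 cell. The chemokines Ccl5, with 0, 62, 50 and 10 UMIs, and Ccl17, with 0, 4, 39 and 40, passed the same way, but 1 cell gave 85.5% and 98.00% of Ccl5 at D1 and D4, and 76.9% and 77.5% of Ccl17 at D4 and D7. Those 2 genes thus describe single cells.

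A set of genes was higher in all 3 later libraries. Lat2, an adaptor of immune receptor signalling, was at 13.3, 94.2, 66.4 and 86.4 CPM, or 7.07 (2.33 to 35.04), 4.98 (1.49 to 26.1) and 6.48 (2.06 to 32.8) times D0 in turn, on 3 UMIs at D0. Wfdc17, a secreted protease inhibitor of myeloid cells, was at 275, 679, 752 and 1059 CPM, or 2.47 (1.89 to 3.26), 2.73 (2.06 to 3.67) and 3.85 (2.95 to 5.09) times D0. Ier3, an immediate-early survival gene, was at 62.2, 129.7, 228 and 264 CPM, or 2.09 (1.19 to 3.95), 3.66 (2.05 to 7.03) and 4.24 (2.43 to 7.99) times. The D0 library was the lowest for each of the 3, and proximal tubule cells at D1, D4 and D7 had at most 24.0 CPM of any of them. Ifrd1, a transcription coregulator, was at 4.44, 62.4, 56.9 and 70.9 CPM, on 1 UMI at D0, with proximal tubule cells at 19.5 to 21.1 CPM at D1, D4 and D7.

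Mt1, a metal-binding metallothionein, was at 26.6, 77.1, 180.2 and 221 CPM, which was 6.76 (2.92 to 19.2) times D0 at D4 and 8.31 (3.69 to 23.2) times at D7; proximal tubule cells had 61.3 CPM at D4 and 70.5 CPM at D7. Spp1, osteopontin, was at 84.4, 114, 408 and 638 CPM, or 7.56 (4.75 to 12.7) times D0 at D7, but the proximal tubule cells around stood at 227, 428, 862 and 1344 CPM, so carried tubule RNA and the cells' own cannot be told apart. Hspa1a, an inducible chaperone with the near-identical copy Hspa1b, was at 44.4, 77.1, 193 and 215 CPM beside 67.2, 45.1, 163 and 229.6 CPM in proximal tubule cells, and the same holds for it.

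Among chemokines and cytokines, Ccl4, which draws T cells and monocytes, was at 817, 1409, 979.8 and 1304 CPM over all gated cells. The cells with plasmacytoid markers held 145 of its 184 UMIs at D0, 644 of 1152 at D1, 32 of 310 at D4 and 197 of 589 at D7, and without them it was at 232, 869, 926 and 983 CPM, or 3.75 (2.7 to 5.33), 3.99 (2.85 to 5.74) and 4.24 (3.05 to 6.06) times D0. That D0 level rested on 39 UMIs in 8 cells, 56.4% of them in 1 cell. Il1b was at 697, 992, 859.7 and 1752 CPM, highest at D7, at 2.51 (2.11 to 3.001) times D0. Cxcl10 had 3, 51, 14 and 18 UMIs with 70.6% of those at D1 in 1 cell, and Cxcl2 1, 30, 5 and 2 with 43.3%. At D1, 3 of the 8 measured of 11 listed chemokines were higher and none lower, with a median log2 ratio of 0.76, and without the cells with plasmacytoid markers 4 of 8 with a median of 1.31.

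Antigen presentation showed few day differences. Of 13 class II helpers, 13, 12 and 12 were measured at D1, D4 and D7, and their median log2 ratios were 0.14, -0.01 and 0.26. H2-DMb2, a chain of the peptide-loading catalyst H2-M, was at 31.1, 83.2, 44.3 and 75.3 CPM, or 2.68 (1.23 to 6.91) times D0 at D1 and 2.42 (1.06 to 6.47) times at D7. H2-Oa, a chain of the inhibitor of H2-M, was at 147, 111, 63.2 and 81.9 CPM, or 0.431 (0.235 to 0.774) times D0 at D4. Ciita, the master activator of class II genes, was at 48.8, 59.9, 50.6 and 64.2 CPM and passed 2-fold at no day. Among class I genes none of 17 passed at D1, while at D4 Psmb9 was at 0.424 (0.256 to 0.691) times D0 and H2-Q7 at 0.209 (0.109 to 0.378) times, with a median of -0.46 over 15. Without the cells with plasmacytoid markers H2-Q7 stood at 1.12 (0.300 to 5.09) times D0 at D4, so its direction turned, while Psmb9 was still past 2-fold.

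The median log2 ratio of the type 1 list was 0.49, 0.03 and 0.18 at D1, D4 and D7, against 0.145, 0.031 and -0.003 over all genes. Wdfy4, which type 1 cells need to cross-present, was the single type 1 gene of 11 past 2-fold at D1, at 17.8, 67.3, 41.1 and 31.00 CPM, or 3.79 (1.4 to 14.4) times D0. Batf3 was at 40.0, 59.9, 41.1 and 106 CPM and Cd24a at 31.1, 53.8, 63.2 and 93.01 CPM, and at D7 these, 2 of 7 measured, stood at 2.66 (1.29 to 6.17) and 2.99 (1.33 to 7.89) times D0. At D4 Irf8 was the 1 type 1 gene of 7 past 2-fold, and it was lower. Of the type 2 list, S100a4 was at 804, 1001, 1409.7 and 1632 CPM and the galactose lectin Mgl2 at 75.5, 99.1, 114 and 168 CPM, and both passed at D7. Without the cells with plasmacytoid markers S100a4 was at 1076 CPM at D0 and 1846 CPM at D7 and did not pass. The lymphotoxin gene Ltb passed at D1 and D4 and the co-receptor Cd14 at D4, out of 19 measured at each of these days, and Cd209d was lower at D4, with a log2 ratio of -1.83, which turned to 0.61 without the cells with plasmacytoid markers, on 7 and 2 UMIs at D4 and D0. The median log2 ratio of the type 2 list was 0.09, 0.32 and 0.39 at D1, D4 and D7.

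Rare states were seen after D0. Migratory mature cells, with 2 or more UMIs of Ccr7, Fscn1 and Ccl22, numbered 0, 4, 3 and 2 at D0, D1, D4 and D7, and cells with 2 or more UMIs of the division genes Mki67 and Top2a 0, 5, 3 and 3. The 0 of 37 at D0 allows a share of up to 9.49% (exact 95% upper limit), so a difference between the days was not detectable at this depth. Ccr7, the receptor that guides dendritic cells to lymph nodes, had 0, 25, 12 and 2 UMIs, those of D1 in 2 cells. Cells with 10 or more Lyz2 UMIs were 24.3%, 26.0%, 20.3% and 31.2% of dendritic cells, and 13.8%, 11.3%, 13.04% and 28.6% after thinning to 3000 UMIs. Such cells met the Lyz2 and C1q limits of the monocyte-type cells described below. Their UMIs of the rule's marker genes alone kept them out of that group.

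Among interferon-stimulated genes, 2 of 11 measured were higher at D1, Isg15 and Irgm1, and none lower. Isg15 had 2 UMIs at D0, 24 at D1, 5 at D4 and 17 at D7, and Irgm1 2, 31, 4 and 15 beside 22.9 CPM in proximal tubule cells at D1. Without the cells with plasmacytoid markers the list's median log2 ratio at D1 was 0.70, against 0.12 with them, and the same 2 genes passed. Isg15 did not pass at D1 with at most 25% mitochondrial UMIs (log2 ratio 0.99), without the cells marked by the doublet score (0.64), with each cell weighted equally (0.78) or with a pseudocount of 50 CPM (0.43). At D4 none of 6 measured was higher and 2, Ly6e and Bst2, were lower, with a median of -0.77, and at D7 none of 9 passed, with a median of -0.29. At D4 none of 4 passed once the cells carrying plasmacytoid markers were left out. Myd88, the adaptor of Toll-like receptors, was at 17.8, 55.1, 34.8 and 109 CPM, or 3.1 (1.13 to 11.9) times D0 at D1 and 6.11 (2.24 to 23.3) times at D7.

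Of the other lists, the mature migratory list had 3 of 12 measured genes higher at D1 (Ccr7, Fscn1 and Birc2) and 1, Ccl17, at each of D4 and D7. The costimulatory list had 1 of 2 higher at D7, Tnfsf9, at 84.4, 117, 126 and 186 CPM over the 4 libraries. Without the cells with plasmacytoid markers Tnfsf9 was at 113 CPM at D0 and 211 CPM at D7 and did not pass. Of the transcription factors Nfil3, which type 1 cells need to develop, was higher at D4 and D7, on 4 UMIs at D0, 15 at D1, 16 at D4 and 25 at D7, beside 18.2 to 25.4 CPM in proximal tubule cells at the later days. Of the 19 listed cytokines and their receptors Tgfbr1 was lower at D1 and Il1b higher at D7. Of the 15 listed glycolysis and hypoxia genes Ddit4 was higher at D1. Of the 20 listed cell cycle genes Mki67 and Top2a were higher at D1, where 5 of 96 cells had 2 or more UMIs of them, and Birc5 at D7. Of the stress and scar-type list 1 of 14 was higher and 1 lower at D1 (Fabp5 and Apoe), 1 of 11 higher and 2 lower at D4 (Spp1, against Ctsl and Apoe), and 1 of 11 higher at D7 (Spp1). Over all measured genes 4.36%, 3.69% and 3.96% were higher and 0.887%, 2.83% and 1.97% lower at D1, D4 and D7. Such calls are thus a description of single genes and not of their lists. Ctsl, a lysosomal protease, stood at 0.399 (0.293 to 0.541) times D0 at D4, and at 0.815 (0.512 to 1.31) times without the cells with plasmacytoid markers. None of the 19 actin and podosome genes passed at any day, with median log2 ratios of 0.33, 0.06 and 0.29.

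Lower genes at D1 were fewer. Apoe, a lipid carrier that macrophages make in large amounts, was at 586, 78.3, 174 and 374 CPM and stood at 0.134 (0.0975 to 0.181) times D0 at D1, 0.297 (0.212 to 0.409) at D4 and 0.639 (0.505 to 0.808) at D7. The summed macrophage markers given above, at 853, 263, 408 and 600.2 CPM, hold Apoe itself. Their order by day thus does not show how the other macrophage markers moved. Whether macrophage RNA carried into the D0 cells was not tested. Cebpb, a myeloid transcription factor, was at 373, 165, 262 and 399 CPM, or 0.443 (0.335 to 0.589) times D0 at D1. Capg, an actin-capping protein, was at 0.356 (0.232 to 0.549) times D0 and the Fc receptor Fcgr3 at 0.354 (0.193 to 0.659) times. At D0 the UMIs of Apoe, Cebpb, Capg and Fcgr3 came from 10, 10, 16 and 5 cells, with 23.5%, 25%, 14.6% and 42.9% in 1 cell. Of 20 measured immediate-early and heat shock genes none passed in either direction at D1, with a median log2 ratio of -0.15, and 3 of 21 were higher and 1 lower at D4 and 4 of 21 higher at D7.

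The genes lowest at D4 were mostly those of the cells with plasmacytoid markers, which were 4 of 64 cells there. The 8 lowest ratios were those of Siglech, Ly6d, Ly6c2, Cd8b1, Lair1, Hhex, H2-Q7 and Cox6a2. Siglech was at 488, 447, 50.6 and 213 CPM over all gated cells, or 0.104 (0.0572 to 0.176) times D0 at D4. Irf8 was at 773, 862, 240.2 and 407 CPM, or 0.311 (0.234 to 0.409) times, and Bst2 at 1097, 1219.7, 291 and 733 CPM, or 0.265 (0.206 to 0.338) times. Tcf4 and Ly6c2 were lower at D4 as well, at 0.283 (0.18 to 0.434) and 0.159 (0.107 to 0.23) times D0. Of 8 measured chemokine receptor and adhesion genes 3 were lower and none higher, among them the homing receptor Cxcr4, at 0.4 (0.156 to 0.962) times D0, and Itga4, at 0.411 (0.244 to 0.681) times.

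With those cells taken out, Irf8 stood at 0.777 (0.479 to 1.28) times D0 at D4, Bst2 at 1.04 (0.653 to 1.7), Tcf4 at 0.654 (0.281 to 1.55) and Itga4 at 0.667 (0.358 to 1.25), and none passed 2-fold. What was still lower at D4 included Apoe, at 0.193 (0.134 to 0.273) times D0, Fcgr3, at 0.24 (0.0968 to 0.547) times, the G protein regulator Rgs2, at 0.394 (0.263 to 0.586) times, and the chemokine Ccl6, at 0.416 (0.285 to 0.605) times. At D7 the transcription factor Mef2c was at 0.462 (0.278 to 0.77) times D0 without them and 0.354 (0.24 to 0.518) with them. Cd7, a surface glycoprotein, was higher at D4 without them, at 3.27 (1.76 to 6.63) times D0.

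**Figure D4:**
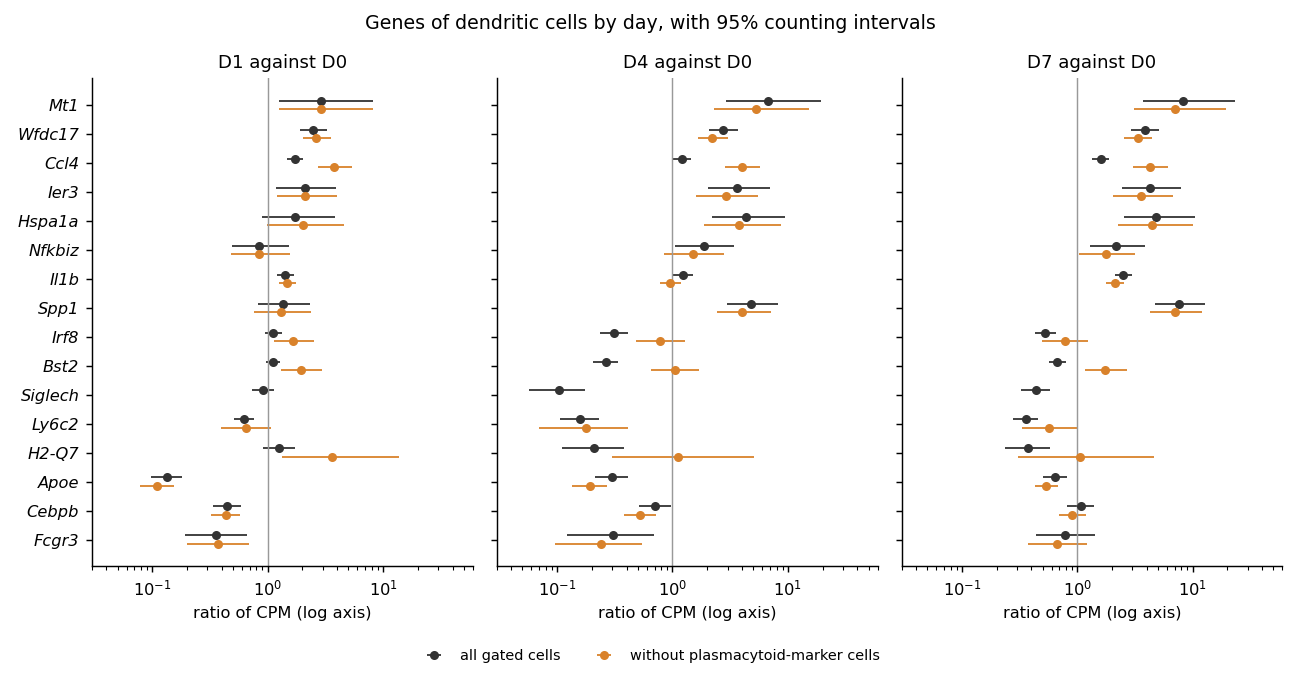
Ratios of CPM at D1, D4 and D7 to D0 for 16 genes on a log axis, over all dendritic cells (black) and without the cells with plasmacytoid markers (orange), with bars for 95% intervals of counting error; the line is at 1. Siglech has no orange point, since it had no UMI in the D0 cells left. Wfdc17, Ier3 and Mt1 lie above 1 in both sets, Apoe lies below 1 in both, and Irf8 and Bst2 lie well below 1 at D4 in the black set only.

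Dendritic cells were then set against the 2 myeloid populations nearest to them in the same libraries, with the library as a block. C1q-high macrophages had at least 20 UMIs of C1qa, C1qb and C1qc and none of Flt3, Clec9a and Xcr1, and numbered 113, 91, 68 and 137. Monocyte-type cells had at least 10 UMIs of Lyz2, at most 4 of C1q and none of the 4 dendritic cell genes, and numbered 90, 208, 85 and 258. Of the dendritic cells, 24.3%, 26.0%, 20.3% and 31.2% at D0, D1, D4 and D7 also had 10 or more Lyz2 UMIs. Only their UMIs of those 4 genes kept these cells out of the monocyte-type gate, so the dendritic cell label can hold cells of that kind. The gates pick cells by identity genes, so that differences in other identity genes are in part built in; genes of the 2 gates compared were not tested. A gene near absent in either population of a contrast can enter the test through the other population alone. The results of such genes, and the counts that hold them, are descriptions.

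Against macrophages, 162 of 4688 genes were at least 2-fold higher in dendritic cells (3.46%) and 276 lower (5.89%) in edgeR's quasi-likelihood test at a Benjamini-Hochberg adjusted p under 0.05. Klrd1, the lectin CD94, was at 231, 177, 218 and 261 CPM in dendritic cells at D0, D1, D4 and D7, against 0, 0, 0 and 1.09 CPM in macrophages, the last on 1 UMI. Its log2 fold change was 8.33 ± 0.40 with an adjusted p of 4.01e-10. Cd7 was at 151, 325, 231 and 230.3 CPM against 2.61, 8.54, 2.63 and 0 (log2 fold change 6.24 ± 0.38). Both genes, and Klrk1 below, entered the test through the dendritic cells alone by the values given, so their results are descriptions. Klrd1 and Cd7 are also known from NK cells. Of the 10 NK cell markers, 2, 4, 2 and 3 had a UMI in dendritic cells at D0, D1, D4 and D7. Klrk1, the receptor NKG2D and the 1 NK cell marker tested, was higher too, at 53.3, 53.8, 37.9 and 75.3 CPM in dendritic cells, against 10.4, 2.13, 0 and 3.26 CPM in macrophages (log2 fold change 3.90 ± 0.44). Ncr1, Klrb1c, Klra8, Prf1, Eomes and Klra4 were at 0 in the dendritic cells of all 4 libraries, and the part of NK cell RNA in these values was not tested. Without the cells with plasmacytoid markers the log2 fold changes of Klrd1 and Cd7 were 8.13 and 5.87.

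The class II loading machinery differed in part. The macrophage gate has no class II step, unlike the dendritic cell gate, so such differences are in part built in. H2-Oa was at 147, 111, 63.2 and 81.9 CPM in dendritic cells, against 7.82, 19.2, 7.89 and 7.62 CPM in macrophages (log2 fold change 3.15 ± 0.29, adjusted p 4.18e-07). H2-DMb2 was at 31.1, 83.2, 44.3 and 75.3 CPM against 2.61, 14.9, 2.63 and 3.26 (log2 fold change 3.37 ± 0.38, adjusted p 5.34e-06). Ifi30 was higher by 1.36, while the proteases Lgmn (-2.22) and Ctss (-1.30) were lower, which makes 3 higher and 2 lower of 12 tested. Tnfsf9 was higher by 3.61, the gut-homing integrin chain Itgb7 by 3.51, and its partner Itga4 by 2.10. These 2 were among 5 of 9 tested chemokine receptor and adhesion genes that were higher, Ccr9 among them; the chemokine receptor Ccr1 was lower. With the cells carrying plasmacytoid markers left out, Itgb7 and Itga4 were the 2 higher of 7 tested.

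Macrophages held more chemokine RNA. Of 9 tested chemokines 7 were lower in dendritic cells and none higher, with a median log2 fold change of -1.94, against 0.02 over all tested genes. Ccl4 was at 817, 1409, 979.8 and 1304 CPM in dendritic cells, against 4329, 5059.7, 2471 and 2119 CPM in macrophages (log2 fold change -1.59 ± 0.20, adjusted p 2.06e-05). Cxcl2 and Ccl2, which draw neutrophils and monocytes, were lower, with log2 fold changes of -5.29 and -5.10. Apoe was lower with -5.58, and the scavenging and scar genes as a list had 7 of 15 tested lower and none higher. Of 19 actin and podosome genes 7 were higher, with Tmsb10 at 2.41 and Vim at 1.94, and 1 lower.

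Of 10 tested type 1 genes 4 were higher than in macrophages (Ifi205, Cd24a, Irf8 and Naaa) and 2 lower (Cadm1 and Rab7b), with a median log2 fold change of 0.40. Cadm1, known from type 1 cells, was lower in dendritic cells than in macrophages, at 44.4, 25.7, 22.1 and 11.1 CPM against 117, 117, 68.4 and 47.9 (log2 fold change -1.91 ± 0.24, adjusted p 1.76e-05). The type 2 genes Mgl2 (-1.65), Sirpa (-1.23), Csf1r (-2.65) and Cd14 (-3.31) were lower too, among 8 of 18 tested type 2 genes lower and 2 higher. The 2 higher were S100a4 (2.20) and the transcriptional corepressor Cbfa2t3 (2.71).

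Against monocyte-type cells, 135 of 4777 genes were higher in dendritic cells (2.83%) and 223 lower (4.67%) by the same test, and 213 were higher with the D4 library left out. H2-Oa had no UMI in monocyte-type cells of any library, so it entered the test through the dendritic cells alone and its result is a description. H2-DMb2 was higher by 4.40 ± 0.38, H2-DMb1 by 1.91 ± 0.15 and H2-DMa by 1.51 ± 0.14. Ciita was at 48.8, 59.9, 50.6 and 64.2 CPM in dendritic cells, against 9.61, 18.3, 13.8 and 13.5 CPM in monocyte-type cells (log2 fold change 2.01 ± 0.26, adjusted p 7.48e-06). These 5 were all higher of 12 tested class II helpers, none was lower, and the list's median log2 fold change was 0.82, against 0.0025 over all tested genes. Without the cells with plasmacytoid markers 8 of 13 were higher. The dendritic cell gate asks for at least 20 class II UMIs, and the monocyte-type gate has no class II step. Higher class II helpers are thus in part built in, and these counts are a description.

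Mgl2, lower in dendritic cells than in macrophages, was higher in them than in monocyte-type cells, at 75.5, 99.1, 114 and 168 CPM against 0, 0.761, 4.59 and 8.98 (log2 fold change 4.93 ± 0.33), and Clec10a was higher by 3.78. They were among 4 of 19 tested type 2 genes higher, with Cd209d and Cfp, while 6 were lower (Lst1, Csf1r, Cd14, Cx3cr1, Clec4a2 and Itgam) and the median log2 fold change was -0.53. Of 9 tested type 1 genes 5 were higher and none lower. Ccl4 was higher too, at 817, 1409, 979.8 and 1304 CPM in dendritic cells, against 154, 283, 124 and 415 CPM in monocyte-type cells (log2 fold change 2.32 ± 0.15, adjusted p 8.39e-10), so that it stood between the 2 populations. Ccl2, Cxcl2 and Ccl6 were lower. Of 10 tested pattern recognition receptors 5 were lower, among them Clec4e (-3.45), Tlr13 (-2.78) and Tlr7 (-1.77). Cebpb was lower with a log2 fold change of -2.74 ± 0.19, and Chil3, a chitinase-like protein of inflammatory monocytes, was at 0, 0, 0 and 2.21 CPM against 257, 1016, 563 and 1204. By these values Chil3 entered the test through the monocyte-type cells alone, so its result is a description. Klrd1 (6.88) and Cd7 (9.10) were higher here as against macrophages. Of 13 tested interferon-stimulated genes 4 were lower, Ifi204, Gbp2, Zbp1 and Isg15, and Bst2 was higher. None of the 19 actin and podosome genes passed in this contrast.

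Plasmacytoid markers were among the genes with the highest folds in both contrasts. All 7 tested were higher than in macrophages and 6 of 7 than in monocyte-type cells, and without the cells that carry them 0 of 3 passed in either contrast. Those cells were removed by genes of the same marker list, so this loss follows from the removal and is a description. Irf8 had a log2 fold change of 1.27 against macrophages over all gated cells and of -0.18 without those cells. Without them 129 of 4407 genes were higher (2.93%) and 261 lower (5.92%) than in macrophages, and 115 of 4735 higher (2.43%) and 183 lower (3.86%) than in monocyte-type cells.

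**Figure D5:**
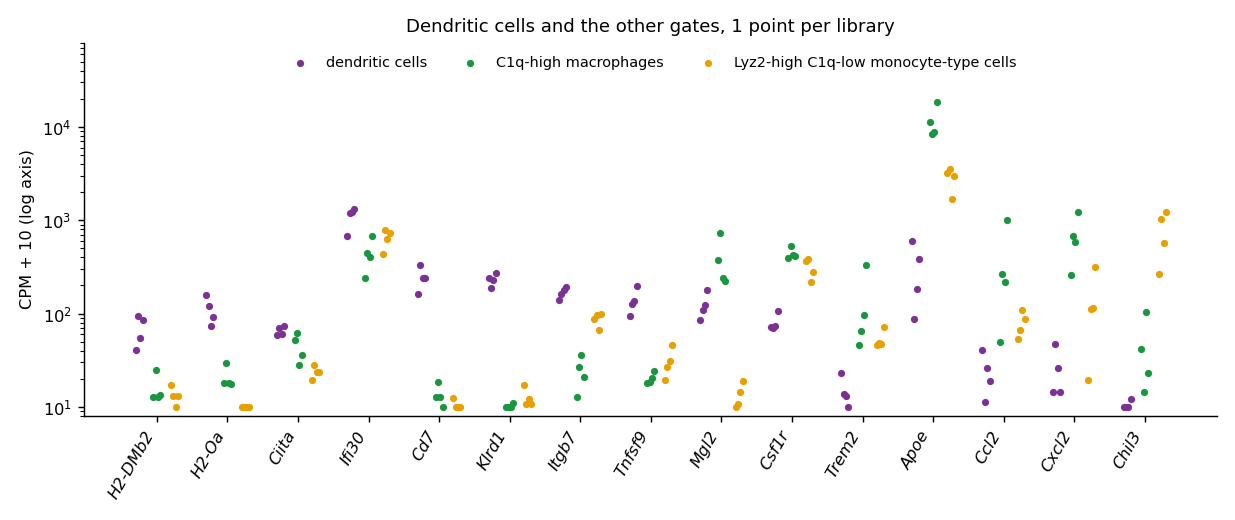
CPM plus 10 on a log axis for 15 genes in dendritic cells, C1q-high macrophages and monocyte-type cells, with 1 point for each of the 4 libraries. Klrd1 is at 177 to 261 CPM in dendritic cells and at 0 to 1.09 CPM in macrophages; Apoe lies lower in dendritic cells than in both other populations in every library.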

How the data were processed

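Droplet single-cell RNA libraries of whole mouse kidney, 1 for each of D0, D1, D4 and D7, were used as the matrices of UMI counts that the authors deposited, with 27998 genes and 16426, 12730, 16427 and 15087 barcodes. Per the submitters' processing notes these counts came from Cell Ranger 3.1.0 with the genome build mm10, and per the file headers the matrices were written by software version 3.0.1. How barcodes were called as cells and the annotation release used were not given in the sources used here. The counts carry no doublet removal or correction for free RNA that the labels or headers state, and a barcode list that starts deeper leaves fewer shallow cells in a share.

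Barcodes were gated by the rule in the text in Python 3.11.15 (NumPy 2.4.6, pandas 2.3.3, SciPy 1.17.1, scanpy 1.11.5, matplotlib 3.10.9). UMIs of the gated cells were summed per library and divided by their total to give counts per 1000000 UMIs (CPM). Days were compared without a test, as ratios of CPM with exact intervals for 2 Poisson counts, and a gene was counted past 2-fold in CPM plus a pseudocount of 10, with at least 20 UMIs in the pair. Contrasts within libraries used edgeR 4.0.16 (with limma 3.58.1, R 4.3.3) on summed counts, with TMM scaling, filterByExpr, the quasi-likelihood test, the library as a block and Benjamini-Hochberg adjustment; genes past 2-fold at an adjusted p under 0.05 were counted. The block pairs sums that come from the same library. The p-values rest on 4 libraries. DESeq2 1.42.0 was an alternative. The scripts were checked on simulated data. Intervals cover counting error only, and share intervals are 95% Clopper-Pearson.

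The TMM scaling moved the median log2 ratio of all genes at D1 from 0.145 to 0.117, and those at D4 and D7 were then 0.046 and 0.059; day ratios are given on the CPM scale.

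The members of the population, the 17 gene lists and the tests were chosen with earlier results of these data known. Genes named by day were the 8 highest and 8 lowest ratios among genes that had 30 or more UMIs over both libraries and a level of at least 2 times that of proximal tubule cells in the higher library. In the subset contrast the 15 and in the other contrasts the 10 highest and lowest log2 fold changes past the adjusted p could be named, as could genes of the lists and of the rule. Mitochondrial, ribosomal protein, haemoglobin, immunoglobulin, Gm and Rik model genes were left out. A measured gene of the lists is counted in them but not reported here. Positions came from GENCODE M21 (488 of 488 gene identifiers matched) and upstream sequences from RefSeq (GRCm38.p6).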

Additional observations from a re-analysis of the deposited data

How the results depend on the processing

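No paired analysis was possible because each day has 1 library, so day values rest on counting error alone, on 37 dendritic cells at D0, and a share or ratio here has no spread between animals. In the contrasts within libraries the library was the block. With no replicate block 25 genes were higher and 58 lower with Clec9a or Xcr1, 144 and 250 against macrophages and 127 and 205 against monocyte-type cells. DESeq2 gave 25 and 45, 127 and 214, and 110 and 169. Of the counts and shares recomputed, 206 stayed close, 96 moved and 1 reversed. Of the single genes by day 3484 stayed close, 207 moved and 14 reversed, and of those in edgeR contrasts 6677 kept their side of the threshold, 507 lost a call, 131 gained one and 13 reversed. The removal of cells with plasmacytoid markers and the equal weighting of cells were chosen after seeing the data. The cause of the changes below was not tested.

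Shares of barcodes were 0.355% (D0) and 1.18% (D1) at 3000 UMIs or more, 0.141% (D0) without the cells of highest doublet score, 0.166% (D0) and 0.560% (D1) without cells with plasmacytoid markers, 0.665% (D1), 0.292% (D4) and 0.415% (D7) with at least 2 marker UMIs, and 0.293% (D4) and 0.511% (D7) thinned to 3000 UMIs. Ratios to D0 were 5.76, 2.43 and 4.17 at D1, D4 and D7 without cells of highest doublet score, and the D4 ratio fell to 0.994 when thinned, a reversal. The Clec9a or Xcr1 share at D0 was 9.09% without cells with plasmacytoid markers.

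Genes higher and lower by day numbered 504 and 112 (D1), 176 and 149 (D4) and 241 and 118 (D7) with a pseudocount of 1, and 7 and 7, 24 and 34, and 25 and 14 with one of 50. With the proximal tubule profile subtracted they numbered 700 and 193, 384 and 273, and 361 and 238. A minimum of 1 UMI gave 460 and 140, 625 and 445, and 528 and 308, and one of 50 gave 60 and 13, 32 and 33, and 35 and 23. Without cells of highest doublet score there were 488 higher and 220 lower at D1, 186 lower at D4, and 255 higher and 290 lower at D7. At D1 79 were lower with no C1q UMI allowed and 91 with cells weighted equally, which gave 243 and 169 at D4, where 48 were lower without cells with plasmacytoid markers.

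Of the listed genes 16, 9 and 17 were higher and 3, 14 and 2 lower at D1, D4 and D7 as reported. The number higher was 60, 43 and 50 without cells of highest doublet score, 1, 5 and 7 with a pseudocount of 50, and 4, 4 and 11 at a minimum of 50 UMIs. At D4 it was 17 with subtraction, 27 at 1 UMI and 15 with equal weights, and at D7 30 at 1 UMI. The number lower at D1 was 5 without cells of highest doublet score, 1 with at least 2 markers and 1 with a pseudocount of 50. At D4 it was 9 with a pseudocount of 50, 23 at 1 UMI and 3 without cells with plasmacytoid markers. At D7 it was 7 at 3000 UMIs, 9 without cells of highest doublet score, 5 with at least 2 markers, 1 with a pseudocount of 50, 8 with subtraction, 10 at 1 UMI, 1 at 50 UMIs, 1 without cells with plasmacytoid markers and 5 with equal weights.

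In the Clec9a or Xcr1 contrast 1 gene was higher and 14 lower without cells of highest doublet score, 14 and 37 without cells with plasmacytoid markers, 14 higher with at least 2 markers, and 153 lower with no filter. Leaving out 1 library gave 14 to 33 higher and 37 to 62 lower. No filter gave 350 and 497 against macrophages and 375 and 431 against monocyte-type cells, where leaving out 1 library gave 137 to 207 and 223 to 322, and 145 to 213 and 169 to 279.

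Log2 ratios by day reversed without cells with plasmacytoid markers for Bst2 (0.058), Cd209d (0.61), H2-Q7 (0.12), Lair1 (1.22) and Siglech (0.74) at D4 and for Ccr9 (0.81), H2-Q7 (0.055), Lair1 (1.17), Rpgrip1 (0.14) and Siglech (1.32) at D7. Siglech and Ccr9 are among the genes by which those cells were removed, so their values there are in part set by the removal. Without cells of highest doublet score those of Rab7b (0.64) at D4 and of Egf (-0.95), Slc12a3 (-0.55) and Umod (-0.55) at D7 reversed. Log2 fold changes reversed without cells with plasmacytoid markers for Bst2 (-0.72) and Ctsl (-0.19) with Clec9a or Xcr1, for Bst2 (-0.30), Irf8 (-0.18), H2-Q7 (-0.45) and Tcf4 (-0.38) against macrophages and for Ctsl (-0.48) against monocyte-type cells. There Lrp2 (0.11), Spp1 (0.29), Cd63 (0.46), Slc34a1 (0.55) and Slc22a6 (0.44) reversed without cells of highest doublet score, and Itgam (2.65) against macrophages with no filter.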
